A study of Mus musculus with 9 samples.

Results

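Bone marrow-derived mast cells treated with IgE and antigen were compared with untreated mast cells. The comparison took 6 of the 9 RNA libraries in the series, chosen by their labels: 3 carried the treatment label IgE+BSA (called BSA here) and 3 the label Control. Of 47643 genes in the deposited table of read counts, 11560 had a median above 1 CPM (reads counted per gene, scaled to a common library size) over the 9 libraries and were tested, and 11541 of these had a gene symbol in the annotation. The cells were grown from the bone marrow of C57BL/6 mice for at least 4 weeks in medium conditioned by WEHI-3 cells, a mouse line that secretes interleukin 3. IgE against the hapten dinitrophenyl (DNP) and DNP coupled to serum albumin served as antibody and antigen in the study. The study describes the Control cells as untreated and the BSA cells as stimulated with the antigen; whether the Control cells had been given IgE alone, and how long antigen was present before RNA was taken, were not given in the sources used here. The remaining 3 libraries came from cells that also received luteolin (10 µM, 24 h) and entered the expression filter, the placing of the Control libraries and 1 alternative fit. Nothing in the labels says that replicates came from separate cultures or mice, so p-values measure the spread between these libraries, which may be technical.

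Mast cells carry the high-affinity IgE receptor FcεRI, and antigen that bridges receptor-bound IgE sets off the kinases LYN and SYK, the adaptors LAT and SLP-76, calcium entry, and the MAP kinase and NF-κB pathways. Stored granules with histamine and proteases are released first. Immediate early transcription factors follow, then the genes of cytokines, chemokines and prostaglandin synthesis, together with inhibitors that limit the same pathways.

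The 3 Control libraries did not form 1 group. Total counts were 20434341, 9515004 and 22465786 for Control 1 to 3 and 21545516 to 23633717 for the BSA libraries, so 3 counts corresponded to between 0.123 and 0.287 normalized CPM. Pearson's r of log2(CPM + 0.5) across the tested genes, which are not independent, was 0.993 between Control 2 and Control 3 and 0.950 between Control 1 and either of them, whereas Control 1 reached 0.964 to 0.974 with the BSA libraries. Control 1 lay over 2-fold above the mean of Control 2 and 3 on that scale for 512 genes and over 2-fold below it for 670, while Control 2 and 3 differed over 2-fold from each other for 58. No pair of replicates agreed within sampling noise (chi-square per degree of freedom 6.23 to 146). Below, counts over gene lists are therefore given against all 3 Controls, against Control 2 and 3 only, and against Control 1 alone. Fold changes of single genes are against all 3 Controls unless another fit is named, and each named gene said to have risen or fallen also passed in both other fits. The last fit was chosen after seeing the data, assumes that the lone Control library varies like the BSA libraries, and shares the BSA libraries with the other fits.

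Markers placed the difference between the Controls. All 12 mast cell markers were detected in all 6 libraries, several at unequal levels among the Controls. Fcer1a, the IgE-binding receptor chain, had 6494, 4971 and 4331 CPM in Control 1 to 3 and 4897, 4971 and 4546 in BSA 1 to 3, and Kit had 1767, 2275 and 2460.2 and 2128, 2141 and 2147. The chymase Cma1 had 10223, 3995 and 3525 CPM in the Controls and 6979, 7469.9 and 6334 in BSA, the tryptase Tpsb2 26858, 15458 and 16396 and 17290.0, 20063 and 16737, and Mcpt4 1769, 199 and 195 and 1124, 1156 and 1018, each with its highest value in Control 1. Tpsab1, another tryptase, and Mitf had their lowest values there. Tpsab1 had 406, 723 and 691 CPM in the Controls and 556, 468 and 606 in BSA. Mitf had 71.6, 111 and 112 CPM in the Controls and 114, 110 and 121 in BSA. The sum over the 12 genes, of which Cpa3 and Tpsb2 made up the largest part, was 58741 to 88719 CPM in Control and 63899 to 70772 in BSA. The summed CPM of 10 neutrophil markers was 284 in Control 1, 20.2 in Control 2, 19.5 in Control 3 and 200.4 to 224 in the BSA libraries. Of the 9 tested, 8 were higher and 1 lower in BSA by edgeR without Control 1. S100a9, a calcium-binding protein of neutrophil cytosol, had 106, 0.956 and 0.899 CPM in the Controls and 72.0, 77.0 and 70.3 in BSA, and Ngp, a neutrophil granule protein, had 54.3, 0.382 and 0.204 and 47.0, 53.7 and 54.3. Cxcr2, on the same list, did not follow them: it had 11.1, 12.8 and 13.7 CPM in the Controls and 8.91, 11.3 and 9.91 in BSA. On a scale set over all 9 libraries the 3 libraries with luteolin had 83.5 to 99.2 CPM of S100a9, against 105 in Control 1. Thus Control 2 and 3 stood apart from the other 7 libraries in S100a9 and Ngp. The labels do not say which libraries came from the same culture or harvest. In the fit without Control 1, a difference in culture or harvest between Control 2 and 3 and the BSA libraries therefore cannot be told apart from the treatment. The 8 eosinophil markers summed to 57.5, 35.5 and 25 CPM in Control 1 to 3 and 46.4 to 50.2 in BSA. Ear1 was at 0 in all 6 libraries. The members of this list did not move together. Prg2 had 31.8, 0.0956 and 0 CPM in the Controls and 13.5, 18.1 and 16.8 in BSA, and Prg3 and Epx followed it at low levels. Siglecf went the other way between the Controls, with 4.18, 12.7 and 9.97 CPM, and had 10.5, 8.49 and 10.8 in BSA. Ccr3 had its highest value in Control 2 and its lowest in Control 3. T cell markers (8 genes, 3 at 0 throughout) summed to at most 0.599 CPM, fibroblast markers (7 genes) to at most 2.51 CPM and B cell markers (6 genes, 1 at 0 throughout) to at most 3.49 CPM. Sums of the other lists lay between 306 and 365 CPM for 10 macrophage markers (C1qa at 0), 1435 and 1898 for 4 basophil markers, 55.3 and 90.1 for 10 dendritic cell (Siglech at 0), 63.9 and 123 for 8 erythroid (Hba-a2 at 0) and 1968 and 2476 for 6 megakaryocyte markers. The basophil sum joined members that moved oppositely between the Controls: Mcpt8 had 436, 21.5 and 18.6 CPM in Control 1 to 3 and 295, 329.7 and 289.6 in BSA, and Cd200r3 had 694, 1031 and 1014 and 652, 615 and 635. In bulk RNA, fewer cells of a type and less RNA per cell cannot be told apart, and the part of these markers in the results below was not tested.

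**Figure D1:**
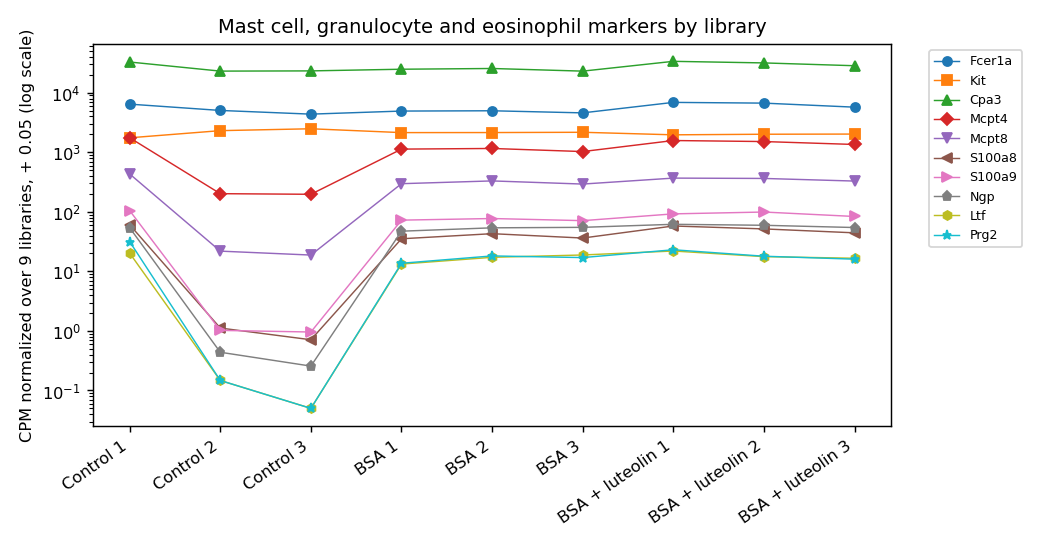
Normalized CPM plus 0.05 on a log scale for 10 marker genes in each of the 9 libraries; each line joins the values of 1 gene. S100a8, S100a9, Ngp, Ltf, Prg2, Mcpt4 and Mcpt8 are low in Control 2 and 3 and high in Control 1 and the other 6 libraries. The neutrophil marker Cxcr2, which is not drawn, does not follow this pattern.

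With all 3 Controls, 260 genes were raised (2.25% of those tested) and 118 lowered (1.02%) in BSA at an adjusted p under 0.05 (edgeR quasi-likelihood test, Benjamini-Hochberg over all tested genes). DESeq2 called 599 genes raised (5.19%) and 628 lowered (5.44%); counts of raised and lowered list members are by edgeR unless another tool is named. Every one of the 378 genes also passed, in the same direction, without Control 1. The 260 raised genes passed against Control 1 alone as well (2.25% of tested genes passed higher in all 3 fits), as did 116 of the 118 lowered genes (1.0%). Of the 378, 142 rose and 53 fell by at least 2-fold against all 3 Controls. The 6 libraries did not overlap between groups for any of the 378 genes; this separation held for 1873 tested genes in the higher direction (16.2%) and 1410 in the lower (12.2%). The median log2 fold change was 1.08 for the raised genes and −0.96 for the lowered genes, beside 0.02 for all tested genes. An unadjusted p under 0.05 (edgeR) was reached by 2362 of the 11560 tested genes, both directions together. List counts at that level below are to be read beside this share.

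Without Control 1, 2616 genes passed as higher (22.6%) and 2591 as lower (22.4%). Against Control 1 alone, 2675 passed as higher (23.1%) and 2217 as lower (19.2%). Leaving out another library lowered the counts: 122 raised and 11 lowered without Control 2, 124 and 13 without Control 3, 87 and 4 without BSA 1, 106 and 5 without BSA 2, and 88 and 2 without BSA 3. In all 6 reduced sets, the one without Control 1 included, 84 raised genes and 1 lowered gene passed. Raised genes made up 68.8% of the calls with TMM scaling, 52.4% with upper-quartile factors and 37.0% with library size alone, which moved the median of all tested genes to −0.15.

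**Figure D2:**
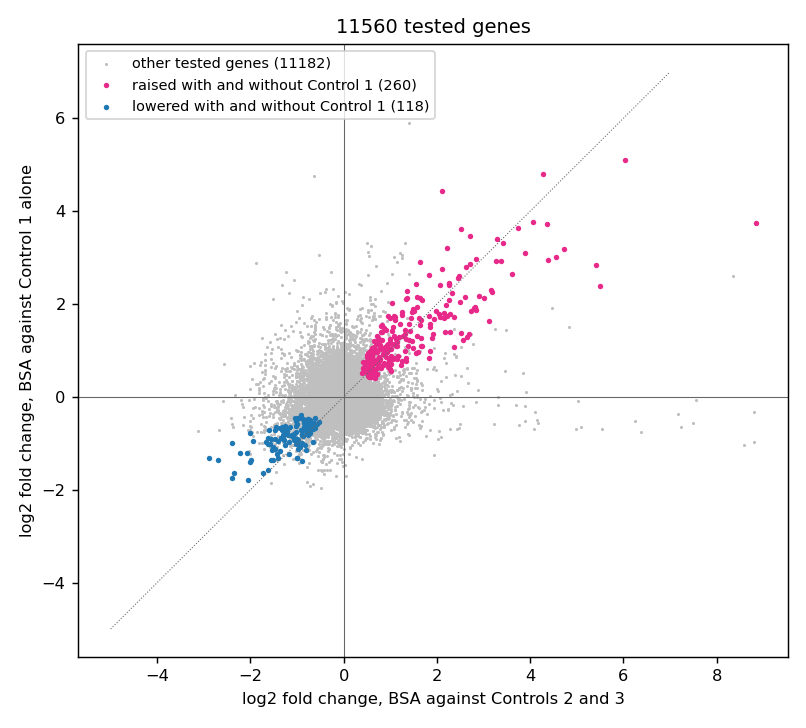
Log2 fold change of BSA over Control 2 and 3 (x axis) and over Control 1 alone (y axis) for the tested genes; both axes share the BSA libraries, and the dotted line marks equal values. The 260 raised and 118 lowered genes lie in the upper right and lower left, and other genes that reach past 6 on the x axis lie near or below 0 on the y axis, apart from Il3.

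The 10 genes with the largest rises were Tnf, Csf2, Nr4a3, Ccl4, Ccl1, Egr2, Ccn1, Ptgs2, Il13 and Atf3. Upstream sequences of a few raised genes are shown first, to set their start sites beside their values. Promoters (300 bases, 250 before to 50 after the RefSeq start site, GRCm38.p6) were matched for 8611 tested genes, among them 186 raised and 93 lowered ones. The letters searched on both strands were TATAAA (the core promoter box of that name), TGANTCA (AP-1), TGACGTCA (CRE), GGGAA and CC with 3 bases between them (NF-κB), GCGTGGGCG (EGR) and CCGGAAGT (ETS); overlapping matches were kept. TATAAA occurred in 32 raised promoters (17.2%), 4 lowered promoters (4.30%) and 565 of all promoters (6.56%). AP-1 letters occurred in 6.99% of raised and 4.62% of all promoters, CRE in 5.91% and 3.38%, NF-κB in 8.06% and 7.03%, EGR in 2.15% and 1.39%, and ETS in 4.30% and 9.53%. In lowered promoters the shares were 7.53% for AP-1, 4.30% for CRE, 6.45% for NF-κB, 1.08% for EGR and 6.45% for ETS. A match describes letters in the window and not a bound site. The 250 bases before the start site are printed below for 6 raised genes chosen after the search for the matches they hold, which are in capitals; positions count back from the start site.

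Tnf (chr17:35202008-35202257, minus strand): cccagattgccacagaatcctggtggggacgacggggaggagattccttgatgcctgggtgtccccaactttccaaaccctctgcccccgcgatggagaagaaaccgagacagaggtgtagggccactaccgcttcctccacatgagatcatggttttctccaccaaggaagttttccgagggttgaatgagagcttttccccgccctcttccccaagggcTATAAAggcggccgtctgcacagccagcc
Il13 (chr11:53634703-53634952, minus strand): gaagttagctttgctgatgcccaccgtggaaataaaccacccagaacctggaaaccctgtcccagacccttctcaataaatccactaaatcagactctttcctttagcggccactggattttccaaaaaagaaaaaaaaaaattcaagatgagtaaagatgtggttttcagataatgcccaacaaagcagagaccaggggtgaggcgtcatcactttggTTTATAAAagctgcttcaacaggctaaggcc
Areg (chr5:91139349-91139598, plus strand): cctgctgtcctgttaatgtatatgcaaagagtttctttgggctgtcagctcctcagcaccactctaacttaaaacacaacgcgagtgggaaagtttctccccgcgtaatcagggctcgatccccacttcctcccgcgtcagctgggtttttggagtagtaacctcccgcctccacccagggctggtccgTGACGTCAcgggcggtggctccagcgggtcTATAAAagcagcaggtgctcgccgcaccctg
Il1a (chr2:129309973-129310222, minus strand): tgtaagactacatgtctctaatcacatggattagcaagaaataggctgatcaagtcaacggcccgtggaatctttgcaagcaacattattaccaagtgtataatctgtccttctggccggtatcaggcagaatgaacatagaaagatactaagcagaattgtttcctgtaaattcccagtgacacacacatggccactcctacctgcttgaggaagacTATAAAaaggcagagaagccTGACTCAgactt
Il6 (chr5:30012864-30013113, plus strand): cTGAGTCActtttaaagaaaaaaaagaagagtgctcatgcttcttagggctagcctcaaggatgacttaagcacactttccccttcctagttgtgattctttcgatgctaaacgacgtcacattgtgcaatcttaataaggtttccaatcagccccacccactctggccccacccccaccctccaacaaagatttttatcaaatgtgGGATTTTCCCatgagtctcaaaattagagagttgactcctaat
Srxn1 (chr2:152105274-152105523, plus strand): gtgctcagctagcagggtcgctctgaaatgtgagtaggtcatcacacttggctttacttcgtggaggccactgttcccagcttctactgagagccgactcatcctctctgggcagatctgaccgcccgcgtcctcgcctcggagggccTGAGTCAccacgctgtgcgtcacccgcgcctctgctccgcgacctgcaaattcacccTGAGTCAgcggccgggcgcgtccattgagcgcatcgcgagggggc

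Tnf and Il13 hold TATAAA 29 bases before the start site, in Il13 overlapped by the same letters on the other strand at 31. Areg holds a CRE at 61 and TATAAA at 31. Il1a holds TATAAA at 32 and AP-1 letters at 12. Il6 holds AP-1 letters at 249 and NF-κB letters at 43, and Srxn1 holds AP-1 letters at 102 and at 45.

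The immediate early transcription factors, which stimulated cells induce first, held many raised genes. Of 31 tested members (1 more, Egr4, was below the filter), 16 rose against all 3 Controls, with a median log2 fold change of 1.49 over the list. The counts were 26 higher and 3 lower without Control 1 (median 1.39) and 25 higher and 1 lower against Control 1 alone (median 1.36). With any other library left out, 11 to 14 rose. Nr4a3, an orphan nuclear receptor (chr4:48045153-48086447), had 24.0, 29.3 and 36.3 CPM in Control 1 to 3 and 696, 566 and 745 in BSA 1 to 3, a log2 fold change of 4.48 ± 0.21 (SE; adjusted p = 0.000173, edgeR). Its relatives Nr4a2 and Nr4a1 rose by 3.25 ± 0.23 and 2.47 ± 0.28 on the log2 scale. All 3 BSA libraries lay above all 3 Controls for each of them, and Control 1 was the lowest Control for Nr4a3 and the highest for the other pair.

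The zinc finger factors of the EGR family, which respond to ERK signalling, included 3 raised genes. Egr2 (chr10:67535475-67542188) went from 82.5, 66.3 and 63.1 to 1078, 1173 and 1087 CPM (log2 fold change 3.98 ± 0.15, adjusted p = 4.88e-05, edgeR). Egr3 went from 295, 518 and 599 to 2523, 2519.8 and 3068 CPM (log2 fold change 2.52 ± 0.27), and Egr1 from 1228, 525 and 762 to 2992, 3495 and 3233 CPM (1.95 ± 0.29). Egr1 was already abundant in the Controls and had the smallest log2 fold change of these 3 genes. Egr4, too low to be tested, had 3, 1 and 1 counts in Control 1 to 3 and 127, 85 and 111 in BSA 1 to 3. The EGR corepressors Nab1 and Nab2 did not pass, with log2 fold changes of 0.38 and −0.08 (adjusted p = 0.269 and 0.878, edgeR).

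AP-1 subunits and the stress factor ATF3 were also raised. Fos had 56.8, 23.4 and 30.7 CPM in the Controls and 318, 404 and 336 in BSA (log2 fold change 3.25 ± 0.33, adjusted p = 0.0033, edgeR). Fosb (2.34 ± 0.18), Jun (2.47 ± 0.32), Fosl2 (1.49 ± 0.10) and Jund (0.81 ± 0.10) rose by less on the log2 scale. Atf3 (chr1:191170296-191218039) had 17.3, 17.5 and 14.4 CPM in the Controls and 209, 220.2 and 217 in BSA, and its fold change differed little between the fits: 3.72 with all Controls, 3.73 without Control 1 and 3.64 against Control 1 alone. Junb had 796, 333 and 428 CPM in the Controls and 861, 1042 and 869 in BSA, so its Control 1 value was close to the BSA range; it did not pass (log2 fold change 0.83 ± 0.30, adjusted p = 0.187, edgeR), and neither did Ier2 (1.06 ± 0.42, 0.213). Against Control 1 alone the log2 fold changes of Junb and Ier2 were 0.22 and 0.25, and without it 1.22 and 1.68. Myc, Id2, Batf and Klf10 had log2 fold changes of 0.23, −0.02, −0.08 and −0.32 and did not pass. The calls of Jun were lost without Control 3, BSA 2 or BSA 3 (adjusted p up to 0.0552, edgeR), those of Egr1 without Control 3 or any 1 BSA library (up to 0.0976), of Jund when any 1 BSA library was left out (up to 0.0604), and of Csrnp1 and Ier3 when any 1 library other than Control 1 was left out (up to 0.157 and 0.0781).

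**Figure D3:**
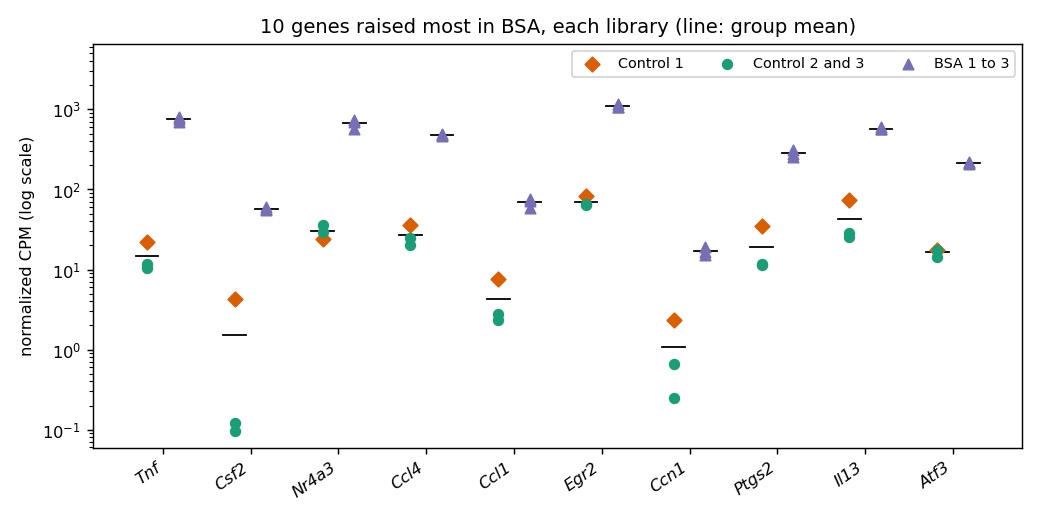
Normalized CPM on a log scale of the 10 genes with the largest rises in each of the 6 libraries; diamonds show Control 1, circles Control 2 and 3, triangles BSA, and the line the group mean. BSA libraries lie above every Control for each gene, and Control 1 is the highest Control for 8 of the 10, Nr4a3 and Atf3 being the exceptions.

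Cytokine and growth factor genes had the highest median fold change of the lists against all 3 Controls. Among 16 tested members, 11 rose against all 3 Controls (median log2 fold change 2.08), 16 without Control 1 (2.38) and 15 against Control 1 alone (1.92). With any of the 5 other libraries left out, 6 or 7 rose. Tnf (ENSMUSG00000024401, chr17:35199381-35202007), the cytokine tumor necrosis factor, had the largest fold change of all called genes in this edgeR fit: 22.0, 11.8 and 10.5 CPM in Control 1 to 3 and 761, 799.7 and 704 in BSA 1 to 3, a log2 fold change of 5.67 ± 0.32 (adjusted p = 0.000206, edgeR). Leaving out 1 library at a time kept it between 5.46 and 6.04. Csf2 came above Tnf without Control 1 and with limma trend (6.64 for Csf2 and 5.74 for Tnf), limma-voom (6.96 and 5.73, and also with sample quality weights) and the replicate block (5.78 and 5.74).

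Csf2 (ENSMUSG00000018916, chr11:54247271-54249667), which encodes GM-CSF, had 88 counts in Control 1, 1 in Control 2 and 3 in Control 3, or 4.32, 0.0956 and 0.123 CPM, against 55.8, 59.8 and 57.6 CPM in BSA. Its log2 fold change was 5.14 ± 0.92 with all Controls (adjusted p = 0.0334, edgeR) and 3.74 against Control 1 alone, while the 1 to 3 counts of Control 2 and 3 give no firm fold without Control 1. The call was lost when any library other than Control 1 was left out (adjusted p up to 0.161). Il3, its neighbour 15.6 kb away on chromosome 11, had 7 counts in Control 1 and 0 in Control 2 and 3, and 1.53, 1.60 and 3.19 CPM in BSA. By edgeR Il3 did not pass with all 3 Controls (adjusted p = 0.0631) and passed without Control 1 and against Control 1 alone (log2 fold change 2.59). It passed with all 3 Controls by DESeq2 (adjusted p = 0.00101), limma trend (0.0383) and limma-voom (0.034). The medium itself supplied interleukin 3 protein, which RNA counts do not show.

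The type 2 cytokines Il13 and Il4, 12.7 kb apart on chromosome 11, both rose. Il13 (ENSMUSG00000020383, chr11:53631324-53634702), a driver of mucus production and airway hyperreactivity, had 74.5, 28.5 and 25.1 CPM in the Controls and 595, 564 and 571 in BSA (log2 fold change 3.75 ± 0.43, adjusted p = 0.00515, edgeR). Il4, which promotes IgE class switching, had 31.3, 27.7 and 22.5 CPM in the Controls and 92.7, 89.0 and 97.4 in BSA (1.78 ± 0.14, 0.00117). The Control 1 level of Il13 was over 2-fold that of the other Controls, while the 3 Control levels of Il4 lay closer together. Il5, Il9, Il10 and Il2 stayed below the filter, with at most 26 counts in any of the 6 libraries.

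Among other cytokines, Il6 had 346, 208 and 187 CPM in the Controls and 1576, 1509 and 1554 in BSA (log2 fold change 2.64 ± 0.24, adjusted p = 0.00202, edgeR). Lif, a relative of Il6, had 696, 320.4 and 400.1 CPM in the Controls and 2405, 2625 and 2479 in BSA (2.41 ± 0.28). Both genes were well expressed in the untreated cells. The EGF receptor ligands Areg and Hbegf rose from 3.88, 0.573 and 0.368 to 22.0, 19.4 and 19.9 CPM and from 23.3, 18.1 and 20.1 to 93.7, 89.0 and 93.1 CPM. Il1a (1.99 ± 0.39), Csf1 (1.65 ± 0.27) and Vegfa (0.56 ± 0.11) rose as well on the log2 scale. Il1b had 323, 169.7 and 169.7 CPM in the Controls and 435, 468 and 429 in BSA and did not pass with all Controls (log2 fold change 1.01 ± 0.26, adjusted p = 0.0881, edgeR), nor did Osm (1.55 ± 0.43, 0.105), Il1rn (1.26 ± 0.35, 0.11) and Tgfb1 (0.45 ± 0.16, 0.179) by edgeR. DESeq2 called Il1b, Osm and Il1rn higher with all 3 Controls (adjusted p = 0.00521, 0.00333 and 0.0103) and not Tgfb1 (0.115), and limma trend and limma-voom called none of these 4 genes. By edgeR they passed as higher without Control 1. The calls of Areg, Il1a and Vegfa were lost when any 1 library other than Control 1 was left out (adjusted p up to 0.2, 0.193 and 0.208, edgeR), and that of Csf1 without Control 3 or any 1 BSA library (up to 0.139).

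Some chemokine genes rose with all 3 Controls, and the calls of others depended on which Controls were used. Of 14 tested members, 5 rose with all 3 Controls (median log2 fold change 1.52), and the same count of 5 was reached with any other library left out. Without Control 1, 11 passed as higher and 3 as lower (median 2.20), and against Control 1 alone 7 passed as higher (0.60). Ccl4 (ENSMUSG00000018930, chr11:83662584-83664683) had 36.2, 24.9 and 20.5 CPM in the Controls and 487, 463 and 477 in BSA (log2 fold change 4.13 ± 0.23, adjusted p = 0.000201, edgeR). Ccl3, 13.2 kb away, had 398, 315 and 249 CPM in the Controls and 1775, 1754 and 1783 in BSA (2.47 ± 0.18). Ccl1 (chr11:82176657-82305690), a ligand of CCR8, went from 7.57, 2.77 and 2.37 to 72.2, 59.3 and 75.8 CPM (4.0 ± 0.43), and the monocyte attractants Ccl7 and Ccl2, 8.26 kb apart, rose by 3.42 ± 0.19 and 1.97 ± 0.14. All 5 raised chemokine genes lie on chromosome 11, and the share of the tested list on that chromosome was not counted.

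The CXCR2 ligands did not pass by edgeR with all 3 Controls, whereas DESeq2 called Cxcl1 (adjusted p = 0.00322) and Cxcl2 (0.0476) higher and limma-voom Cxcl1 (0.0487). Over the 14 tested chemokine genes, DESeq2 called 7 higher and 2 lower with all 3 Controls. Cxcl2 had 85.9, 10.8 and 6.79 CPM in Control 1 to 3 and 239, 244 and 252 in BSA, and had a log2 fold change of 2.82 ± 0.88 (adjusted p = 0.139, edgeR), although BSA lay above every Control. Cxcl3 had 51.3, 8.50 and 6.91 CPM in the Controls and 55.5, 56.3 and 59.3 in BSA, so that Control 1 lay near the BSA libraries (0.15 against Control 1 alone, 2.87 without it). Ccl22, a ligand of CCR4, was lower without Control 1: 5.95, 28.9 and 30.1 CPM in the Controls and 4.45, 7.39 and 6.57 in BSA. For this gene Control 1 lay within the BSA range, and the log2 fold change against it was 0.04. Xcl1 and Cxcl10 were below the filter; Xcl1 had 3, 0 and 0 counts in the Controls and 37, 25 and 39 in BSA.

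Of 28 tested NF-κB pathway genes, 8 rose (median log2 fold change 0.23); 11 were higher and 5 lower without Control 1 (0.08) and 14 higher and 2 lower against Control 1 alone (0.31). With library size alone the median without Control 1 became −0.09, and 5 or 6 genes rose with any other library left out. Nfkbid, an atypical nuclear IκB protein, had 84.6, 42.6 and 49.7 CPM in the Controls and 705, 736 and 722 in BSA (log2 fold change 3.61 ± 0.27, adjusted p = 0.000762, edgeR). Nfkbiz (2.21 ± 0.13), the classical inhibitor Nfkbia (0.95 ± 0.10) and the ubiquitin-editing enzyme Tnfaip3 (1.69 ± 0.10) rose too. The kinase Map3k8 (TPL2), which links this pathway to ERK, went from 20.8, 33.6 and 33.6 to 238, 224 and 226 CPM (2.97 ± 0.20), and the subunit Rel from 72.1, 118 and 118 to 316, 259 and 362 CPM (1.60 ± 0.22). The other subunits Rela, Relb, Nfkb1 and Nfkb2 did not pass, with log2 fold changes of 0.05, 0.18, 0.36 and 0.23. The call of Rel was lost without BSA 1 or BSA 3 (adjusted p up to 0.08, edgeR), and those of Tnip3 and Traf1 when any 1 library other than Control 1 was left out (up to 0.139 and 0.206).

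Several feedback inhibitors of MAP kinase signalling were raised. Of 15 tested members 6 rose (median log2 fold change 1.06), and the count was 6 with any other library left out. It was 10 higher and 3 lower without Control 1 (1.49) and 11 higher and 1 lower against Control 1 alone (1.1). Dusp1, a phosphatase of p38 and JNK, had 20.0, 21 and 20.4 CPM in the Controls and 108, 133 and 111 in BSA (log2 fold change 2.52 ± 0.12, adjusted p = 0.000173, edgeR), with little spread in either group. The ERK phosphatases Dusp4 and Dusp6 rose by 2.13 ± 0.17 and 1.98 ± 0.14. Spry1 and Spry2, inhibitors of RAS-ERK signalling, rose from 5.06, 5.16 and 5.40 to 30.4, 30.7 and 31.2 CPM and from 7.08, 13.7 and 10.6 to 45.7, 40.3 and 44.3 CPM, and Errfi1, an inhibitor of EGF receptor kinases, rose by 1.65 ± 0.13. Dusp5, with 128, 49.7 and 54.4 CPM in the Controls and 155, 173 and 157 in BSA, did not pass by edgeR (1.06 ± 0.35, adjusted p = 0.152) and passed by DESeq2 (0.0332). Dusp8, below the filter, had 8, 17 and 8 counts in the Controls and 104, 94 and 146 in BSA.

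In the calcineurin-NFAT list, 1 of 11 tested genes rose with all 3 Controls, 3 were higher and 1 lower without Control 1, and 8 were higher and 0 lower by edgeR against Control 1 alone. Rcan1, an inhibitor of calcineurin and itself a known NFAT target, had 20.2, 21.2 and 20.9 CPM in the Controls and 224, 207 and 207 in BSA (log2 fold change 3.35 ± 0.11, adjusted p = 3.86e-05, edgeR). The 3 Control values lay close together, and the fold change was 3.28 without Control 1 and 3.40 against it alone. The NFAT factors Nfatc1, Nfatc2 and Nfatc3 had log2 fold changes of 0.20, 0.20 and 0.36 and did not pass.

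Some factors that shorten the life of cytokine mRNA were raised. Of 10 tested genes 3 rose (median log2 fold change 0.36), and 1 to 3 did so with another library left out. The counts were 5 higher and 1 lower without Control 1 (0.36) and 7 higher and 1 lower against Control 1 alone (0.88). Zfp36 (tristetraprolin), which binds AU-rich elements, had 28.8, 14.0 and 17.8 CPM in the Controls and 71.2, 74.9 and 81.7 in BSA (log2 fold change 1.90 ± 0.25, adjusted p = 0.0102, edgeR), and its relative Zfp36l1 had 29.3, 33.6 and 48.2 and 121, 124 and 145 CPM (1.81 ± 0.20). The RNase Zc3h12a rose by 0.73 ± 0.09. The call of Zfp36 was lost without Control 3 or any 1 BSA library (adjusted p up to 0.0705, edgeR) and that of Zc3h12a when any 1 BSA library was left out (up to 0.0855). In the list of SOCS and PIM genes, the JAK-STAT inhibitors Cish (1.03 ± 0.13) and Socs3 (1.17 ± 0.22) rose, 2 of 12 tested (4 higher and 4 lower without Control 1, 8 higher and 2 lower against it alone). Cish did not pass when any 1 BSA library was left out (adjusted p up to 0.073, edgeR) and Socs3 when any 1 library other than Control 1 was left out (up to 0.194). Socs1 went the other way against Control 1 alone (−1.58), with 61.9, 17.8 and 29.3 CPM in the Controls and 20.4, 22.4 and 19.2 in BSA, but did not pass with all Controls (adjusted p = 0.306, edgeR).

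Tnfsf9 (4-1BB ligand), Tnfsf14 (LIGHT) and the activation marker Cd69 rose, 3 of 14 tested genes of the TNF superfamily list. Without Control 1, 7 were higher and 1 lower (median 0.29), and against Control 1 alone 6 were higher and 1 lower (0.54). Tnfsf9 had 11.4, 5.83 and 6.01 CPM in the Controls and 41.2, 45.7 and 44.5 in BSA (log2 fold change 2.49 ± 0.27), and Cd69 had 702, 358 and 383 and 1348, 1441 and 1365 (1.52 ± 0.26). The call of Cd69 was lost when any 1 library other than Control 1 was left out (adjusted p up to 0.14, edgeR). Of 17 tested genes for histamine, serotonin, prostaglandin and leukotriene synthesis 1 rose: Ptgs2 (ENSMUSG00000032487, chr1:150100031-150108227), the inducible cyclooxygenase, had 35, 11.4 and 11.6 CPM in the Controls and 275, 258 and 313 in BSA (log2 fold change 3.85 ± 0.46, adjusted p = 0.00627, edgeR). The counts for this list were 10 higher and 1 lower without Control 1 and 3 in each direction against it alone. The constitutive enzyme Ptgs1 did not pass (0.16 ± 0.17). Hdc, which makes histamine, had 555, 328 and 328 CPM in the Controls and 849.9, 715 and 958 in BSA; it fell short of the threshold by edgeR (1.06 ± 0.23, adjusted p = 0.0619) and limma-voom (0.0504), passed by DESeq2 (0.000883) and limma trend (0.0491), and passed by edgeR without Control 1 (1.30) and against Control 1 alone (0.60).

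In the list of IgE receptor chains and proximal signalling genes 1 of 26 tested rose, Lcp2, which encodes SLP-76 (568, 563 and 608 CPM in the Controls and 943, 894 and 971 in BSA, log2 fold change 0.69 ± 0.10, adjusted p = 0.0143, edgeR). Its call was lost when any 1 library other than Control 1 was left out (up to 0.139). Without Control 1, 8 passed in each direction, and against it alone 7 were higher and 5 lower. The receptor chains Fcer1a, Ms4a2 and Fcer1g had log2 fold changes of −0.13 ± 0.16, −0.08 ± 0.10 and −0.02 ± 0.23, and the kinases Lyn and Syk −0.08 ± 0.12 and −0.03 ± 0.13; none of these 5 passed. Among 20 tested receptors for cytokines, lipids, complement and microbial products 1 rose, Il10ra (0.56 ± 0.11), which did not pass when any 1 library other than Control 1 was left out (adjusted p up to 0.229, edgeR). Of the 20, 7 were higher and 5 lower without Control 1, and 5 higher and 6 lower against it alone. Il4ra and Mrgprb2 had log2 fold changes of −0.71 ± 0.16 and −1.09 ± 0.25 (adjusted p = 0.0625 and 0.069, edgeR), with every BSA library below every Control. DESeq2 called both lower (adjusted p = 0.000865 and 0.00157), and limma trend and limma-voom called neither.

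Lists of stress responses also held raised members. In the ATF4 list 6 of 23 tested genes rose (median log2 fold change 0.59), and 2 to 4 with another library left out. Chac1, a glutathione-degrading enzyme, had 12.3, 6.12 and 6.62 CPM in the Controls and 49.9, 56.8 and 55.9 in BSA (log2 fold change 2.68 ± 0.27, adjusted p = 0.0033, edgeR); Ppp1r15a (GADD34) rose by 1.42 ± 0.14 and Atf4 itself by 0.87 ± 0.13. The list median depended on the Control: 0.96 without Control 1, where 20 genes were higher, and −0.03 against Control 1 alone, where 9 were higher and 5 lower. In the NRF2 list 5 of 15 rose (0.55), and 1 or 2 with another library left out; 14 were higher and 0 lower by edgeR without Control 1 (0.73), and 7 higher and 3 lower against it alone (0.32). Srxn1, which repairs oxidized peroxiredoxins, had 333, 218 and 192 CPM in the Controls and 1132, 1116 and 1059 in BSA (log2 fold change 2.15 ± 0.21, adjusted p = 0.00305, edgeR). Hmox1, a common marker of this response, had 149, 73.7 and 65.2 CPM in the Controls and 218, 214 and 198 in BSA (1.13 ± 0.30, 0.0959). Dnajb1, a cochaperone of HSP70, went from 112, 121 and 125 to 618, 688 and 543 CPM (2.37 ± 0.13) and was the 1 gene raised by edgeR among 13 tested heat shock genes (3 by DESeq2 and 7 at an unadjusted p under 0.05), of which 10 were higher and 0 lower by edgeR without Control 1 and 5 higher and 1 lower against it alone. The calls of Atf4, Sesn2, Ftl1, Sqstm1 and Gclc were lost when any 1 library other than Control 1 was left out (adjusted p up to 0.139, 0.095, 0.205, 0.206 and 0.2, edgeR).

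By edgeR with all 3 Controls, 118 genes were lowered and 260 raised; the order was the other way with DESeq2 (628 lowered, 599 raised) and with library size alone (295 and 173). The 10 with the largest falls were Fbxo32, Gm12258, Zfp128, 2900052L18Rik, Aqp8, Zfp870, Zfp947, H2-K2, Zfp873 and Cited4. Fbxo32 (ENSMUSG00000022358, chr15:58175879-58214932), a ubiquitin ligase subunit known from muscle atrophy, had 2.06, 6.02 and 5.89 CPM in the Controls and 0.765, 0.799 and 0.918 in BSA (log2 fold change −2.47 ± 0.46, adjusted p = 0.0356, edgeR). Aqp8 (chr7:123462291-123468004), a water channel, had 9.78, 25.4 and 24.4 CPM in the Controls and 3.64, 5.19 and 5.85 in BSA (−2.02 ± 0.38). In both genes Control 1 lay between Control 2 and 3 and the BSA libraries, and the fold change against Control 1 alone was smaller (−1.31 and −1.0). 2900052L18Rik, a noncoding transcript, had 9.53, 15.0 and 15.0 CPM in the Controls and 2.79, 2.60 and 3.77 in BSA (−2.11 ± 0.26), and Cited4, a coactivator of CBP/p300, had 22.1, 34.1 and 31.5 and 6.34, 11.8 and 7.69 (−1.76 ± 0.27). H2-K2 is annotated as a pseudogene and shares sequence with expressed MHC class I genes, so its counts are uncertain.

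**Figure D4:**
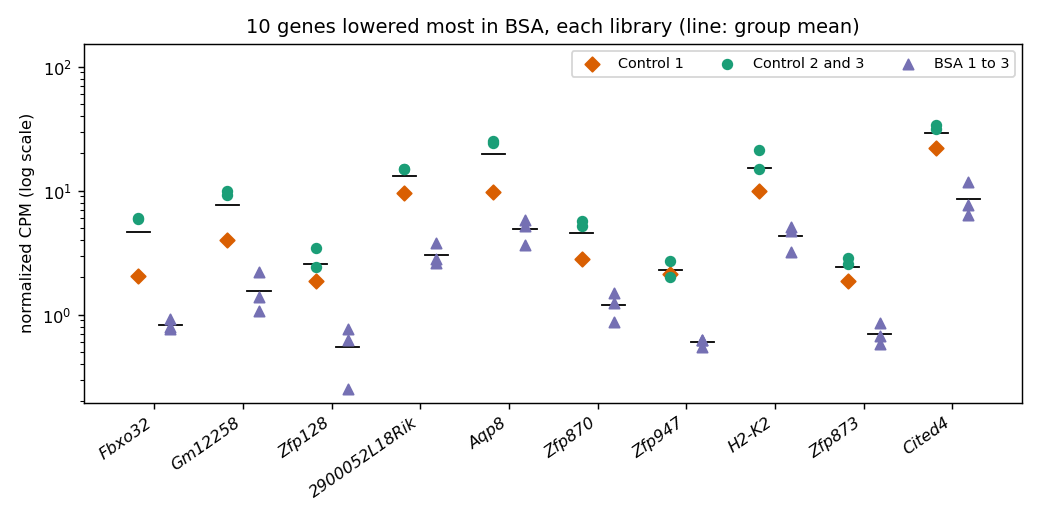
Normalized CPM on a log scale of the 10 genes with the largest falls in each of the 6 libraries; diamonds show Control 1, circles Control 2 and 3, triangles BSA, and the line the group mean. BSA libraries lie below every Control for each gene, and no value exceeds the 34.1 CPM of Cited4 in Control 2.

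With all 6 libraries kept, limma-voom did not call Fbxo32, Gm12258, Zfp128, Aqp8 and Zfp870 (adjusted p = 0.0522 to 0.0806), and limma trend did not call Zfp128 (0.053). After thinning to the smallest total, edgeR did not call these 5, Zfp947 and Zfp873 (adjusted p = 0.0528 to 0.153). None of the 10 falls passed in all 6 reduced sets of libraries. Fbxo32, Gm12258, Zfp128, Aqp8, Zfp870, Zfp947, H2-K2 and Zfp873 passed only when Control 1 was the library left out (adjusted p up to 0.2, 0.206, 0.206, 0.206, 0.189, 0.133, 0.152 and 0.193, edgeR). 2900052L18Rik was lost without BSA 1 or BSA 2 (up to 0.064) and Cited4 without Control 2, Control 3, BSA 1 or BSA 3 (up to 0.139). Of the 10 largest rises, 8 passed in all 6 sets; Csf2 and Ccn1 did not, Ccn1 being lost without Control 2 or any 1 BSA library (up to 0.125). Ccn1 encodes a matricellular protein and had 2.36, 0.669 and 0.245 CPM in the Controls and 15.3, 16.5 and 19.1 in BSA (log2 fold change 3.92 ± 0.62).

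Certain zinc finger symbols were frequent among the lowered genes, a feature noticed after the values were seen. Symbols that begin with Zfp, Zscan, Zkscan, Zbtb or Znf and a number made up 17 of the 118 lowered genes (14.4%), 6 of the 260 raised genes (2.31%) and 347 of all tested genes (3.0%). With any 1 library other than Control 1 left out, only 2 to 13 genes of any kind were lowered, and these symbols were not counted among them. Of these 347, 204 passed as lower and 17 as higher without Control 1, with a median log2 fold change of −0.55, whereas 38 passed as lower and 63 as higher against Control 1 alone, with a median of −0.02. Zfp873 (1.87, 2.58 and 2.86 CPM in the Controls and 0.675, 0.849 and 0.580 in BSA) and Zfp947 (2.11, 2.01 and 2.7 and 0.630, 0.549 and 0.628) had low levels. Both were named for their large falls, and the level over the 17 genes was not summarized. The symbols do not mark 1 family. They take in the mRNA decay factors Zfp36 and Zfp36l1, which were raised, and leave out zinc finger genes with other symbols such as Egr2. Many genes with these symbols are near copies of each other, and reads shared between copies could be split by the counting.

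Transcription factors of the mast cell lineage held 2 lowered genes among 17 tested. Without Control 1, 3 were higher and 8 lower, and against it alone 8 were higher and 5 lower. Cebpa, a factor of granulocyte differentiation, had 10.2, 16.1 and 16.6 CPM in the Controls and 4.09, 5.79 and 6.72 in BSA (log2 fold change −1.37 ± 0.27, adjusted p = 0.042, edgeR). Lyl1, a partner of GATA2 in hematopoietic progenitors, had 89.0, 71.5 and 75.8 CPM in the Controls and 41.4, 49.1 and 38.5 in BSA (−0.87 ± 0.14, 0.0224). Both calls were lost when any 1 library other than Control 1 was left out (adjusted p up to 0.2 and 0.165, edgeR), and limma-voom did not call Cebpa with all 6 (0.0504). Gata2, Mitf and Kit had log2 fold changes of −0.32 ± 0.11, 0.23 ± 0.18 and −0.02 ± 0.14 and did not pass by edgeR; Gata2, with 1606, 1681 and 1879 CPM in the Controls and 1329.6, 1424 and 1385 in BSA, passed as lower by DESeq2 (adjusted p = 0.0185). Among 25 tested mitotic genes, Ube2c fell from 74.0, 82.2 and 80.7 to 53.2, 53.1 and 46.8 CPM (−0.63 ± 0.11), a call likewise lost when any 1 library other than Control 1 was left out (up to 0.179), and the list median was −0.09. None of the 25 was higher and 11 were lower by edgeR without Control 1, and 3 were higher and 7 lower against it alone.

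Among the genes that passed by edgeR without Control 1 but not with all 3 Controls, the 5 with the largest rises were Ltf, Prg2, Cd177, Il3 and Ngp, of which Ltf, Cd177 and Ngp are neutrophil genes and Prg2 encodes the eosinophil granule major basic protein. Ltf had 414, 1 and 0 counts in Control 1 to 3, or 20.3, 0.0956 and 0 CPM, and 13.1, 17.1 and 18.6 CPM in BSA. Prg2 had 648, 1 and 0 counts in the Controls, or 31.8, 0.0956 and 0 CPM, and 13.5, 18.1 and 16.8 CPM in BSA, so the BSA libraries lay below Control 1 and above the other Controls. Against Control 1 alone the log2 fold changes were −0.32 for Ltf, −0.98 for Prg2, −1.04 for Cd177 and −0.07 for Ngp. Of these 5 genes, Il3 was the 1 whose BSA libraries lay above every Control. The 5 with the largest falls were Cyp1b1, Bmf, Chst8, Fat3 and Gm20342. With all 3 Controls these 5 falls and Il3 also passed by DESeq2, which gave no adjusted p for Ltf, Prg2, Cd177 and Ngp. limma-voom with sample quality weights, which gave Control 1 a weight of 0.0694, called all 10 genes, whereas limma trend and unweighted limma-voom called Il3 and none of the other 9. Fat3, an atypical cadherin, had 3.39, 29.9 and 33.2 CPM in the Controls and 4.90, 5.59 and 6.14 in BSA, and Bmf, a proapoptotic BCL2 family member, had 4.62, 18.9 and 15.7 and 3.10, 1.85 and 3.43. Their log2 fold changes against Control 1 alone were 0.71 and −0.72.

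None of 13 tested granule protease genes passed with all 3 Controls by edgeR or limma; at an unadjusted p under 0.05 there was 1, lower, and DESeq2 called 1 lower. Without Control 1, 8 passed as higher and 2 as lower (median log2 fold change 0.49). Against Control 1 alone 1 passed as higher and 11 as lower (−0.54), and the sign of each median held under the 3 other scalings. Mcpt2, a mucosal-type chymase, had 4596, 178 and 156 CPM in Control 1 to 3 and 3192, 3249 and 2906 in BSA. Mcpt4, the connective tissue-type chymase, had 1769, 199 and 195 and 1124, 1156 and 1018, and Mcpt8, a basophil protease, had 436, 21.5 and 18.6 and 295, 329.7 and 289.6. In all 3 genes the BSA libraries lay between Control 1 and the other Controls. The tryptase Tpsab1 differed in the other direction between the Controls, with 406, 723 and 691 CPM in Control 1 to 3 and 556, 468 and 606 in BSA. Cpa3, the mast cell carboxypeptidase, had 33111, 22757 and 23066 CPM in the Controls and 24694, 25503 and 22842 in BSA, with overlapping groups. The Mcpt genes are close relatives, and reads shared between them could be split by the counting.

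For oxidative phosphorylation, the mitochondrial ribosome and the proteasome, the sign of the median turned with the Control. No gene among 78 tested subunits of oxidative phosphorylation passed with all 3 Controls by edgeR or limma (1 lower at an unadjusted p under 0.05 and 1 lower by DESeq2; median log2 fold change −0.02). Without Control 1, 41 were higher and 3 lower (0.23), and against Control 1 alone 1 was higher and 64 lower (−0.50). The mitochondrially encoded genes (37) were listed at 0 in every library, so these are nuclear genes. Mitochondrial ribosomal proteins showed 25 higher and 0 lower of 77 without Control 1 (0.20; edgeR) and 0 higher and 58 lower against it alone (−0.45). With all 3 Controls none of them passed by edgeR, DESeq2 or limma, and 1 in each direction had an unadjusted p under 0.05. Proteasome subunits showed 31 higher and 1 lower of 38 (0.38) and then 1 higher and 31 lower (−0.45), and with all 3 Controls none passed by edgeR or limma, 1 in each direction by DESeq2 and 1 in each direction at an unadjusted p under 0.05. Cytosolic ribosomal proteins showed 5 higher and 16 lower of 80 without Control 1 (−0.08), a share of lower genes below the 22.4% of all tested genes, and 31 higher and 2 lower against Control 1 alone (0.19). With all 3 Controls none of the 80 passed by edgeR or limma, 2 were higher by DESeq2, and 3 were higher and 1 lower at an unadjusted p under 0.05. The signs of these medians held under the 3 other scalings of the same fits.

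The medians of DNA replication and glycolysis genes turned with the Control as well, although single genes rose with each of the 3 choices of Control. Of 35 tested replication genes, 29 were higher without Control 1 and 1 lower (median log2 fold change 0.61), while 4 were higher and 19 lower against Control 1 alone (−0.29). Pola1, the catalytic subunit of primase-bound DNA polymerase, rose with all Controls: 63.2, 58.6 and 63.8 CPM in the Controls and 111, 107 and 108 in BSA (log2 fold change 0.81 ± 0.10, adjusted p = 0.00597, edgeR), a call lost when any 1 BSA library was left out (up to 0.0719). Of 19 glycolysis genes, 17 were higher and 1 lower without Control 1 (0.47) and 3 higher and 4 lower against it alone (−0.14). Hk2, a hexokinase (229, 262 and 283 CPM in the Controls and 423, 427 and 429.9 in BSA), and the glucose transporter Slc2a3 (294, 322 and 326 and 452, 452 and 445) rose in each of the 3 fits. Their calls were lost without Control 2 or any 1 BSA library for Hk2 (adjusted p up to 0.145, edgeR) and when any 1 library other than Control 1 was left out for Slc2a3 (up to 0.229).

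**Figure D5:**
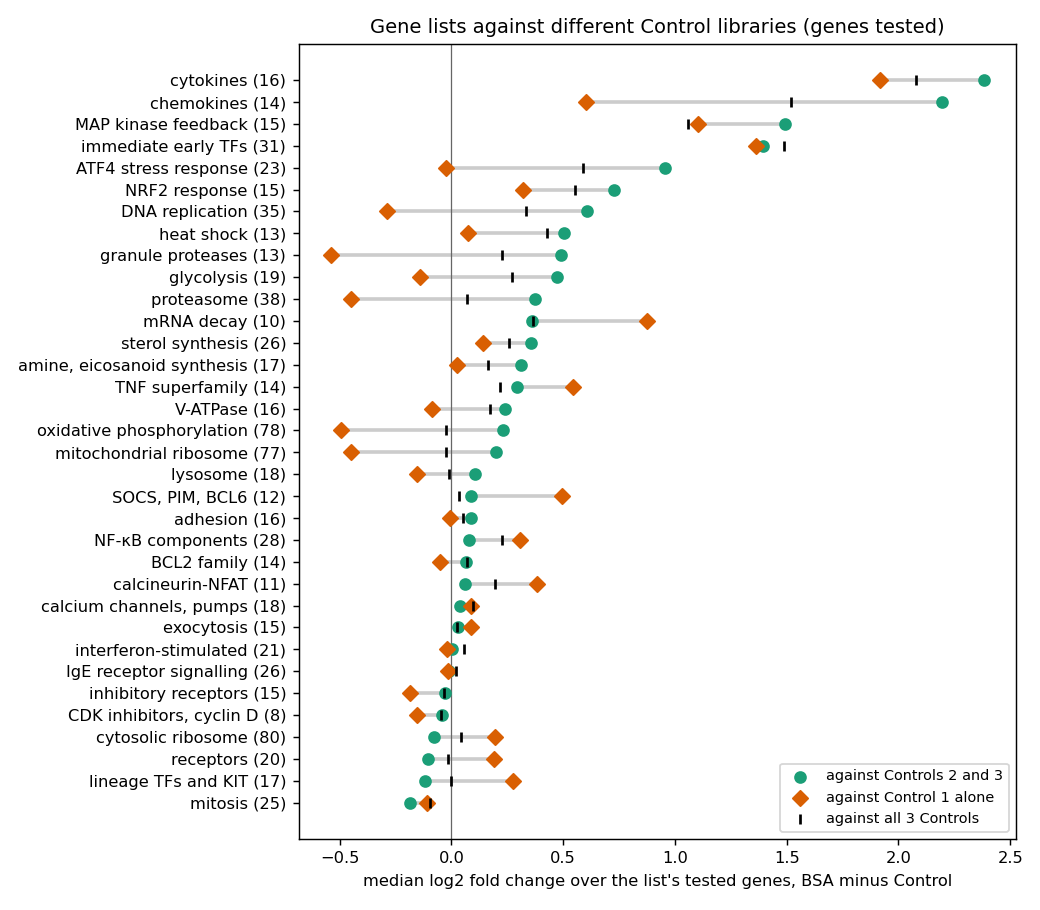
Median log2 fold change of BSA over Control for each gene list (number of tested genes in parentheses) against Control 2 and 3 (circles), Control 1 alone (diamonds) and all 3 Controls (bars). Cytokines, chemokines, MAP kinase feedback and immediate early genes stay above 0 whichever Controls are used, whereas granule proteases, oxidative phosphorylation, mitochondrial ribosome, proteasome and DNA replication cross from above to below 0.

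The remaining lists held few calls with all 3 Controls. In sterol and fatty acid synthesis 2 of 26 tested genes rose by edgeR (5 by DESeq2), Hmgcs1 (0.82 ± 0.11) and Idi1 (0.92 ± 0.15). Among integrins and adhesion molecules Cd44 (0.65 ± 0.10) and Itga4 (0.62 ± 0.11) rose of 16, among lysosomal genes Ctsc (1.37 ± 0.16) of 18, and among CDK inhibitors and D cyclins Cdkn1a (0.88 ± 0.16) of 8. Ctsc, the dipeptidyl peptidase that activates granule proteases, had 671, 493 and 452 CPM in the Controls and 1405, 1334 and 1424 in BSA. Their calls were lost without BSA 1 or BSA 3 for Ctsc (adjusted p up to 0.0541, edgeR), without Control 3 or any 1 BSA library for Hmgcs1 (up to 0.119), and when any 1 library other than Control 1 was left out for Idi1, Cd44, Itga4 and Cdkn1a (up to 0.169, 0.157, 0.218 and 0.2). Without Control 1 and then against Control 1 alone, sterol genes showed 12 higher and 1 lower and then 7 and 1, adhesion genes 6 and 3 and then 4 and 3, lysosomal genes 5 and 0 (edgeR) and then 3 and 7, and the CDK list 2 and 2 and then 3 and 3. By DESeq2 with all 3 Controls the higher and lower counts were 3 and 1 for adhesion genes, 2 and 0 for lysosomal genes, 1 and 1 for the CDK list, 2 and 0 for the NFAT list, 2 and 2 for IgE receptor signalling, 1 and 2 for the receptors, 0 and 3 for lineage factors and 0 and 4 for mitotic genes. None passed by edgeR or limma-trend among 15 genes of granule exocytosis (1 by DESeq2 and 1 at an unadjusted p under 0.05) and 18 calcium channels and pumps (2 and 6). Nor did any pass by edgeR among 21 interferon-stimulated genes (3 by DESeq2 and 4 unadjusted), 14 BCL2 family genes (4 and 4), 15 inhibitory receptors and phosphatases (0 and 4) and 16 V-ATPase subunits (2 and 4). In the fit without Control 1 the higher and lower counts were 1 and 0 (edgeR) for exocytosis, 6 and 2 for calcium channels and pumps, 5 and 3 for interferon-stimulated genes, 3 and 4 for the BCL2 family, 2 and 5 for inhibitory receptors and 8 and 1 for V-ATPase subunits. Against Control 1 alone they were 4 and 3, 6 and 3, 4 and 5, 4 and 3, 3 and 4, and 2 and 2.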

How the data were processed

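Per the labels, the 9 libraries were made from polyadenylated RNA with a stranded kit. The authors trimmed reads with HTStream, aligned them to the mouse genome with STAR 2.7.0f (submitters' processing notes) and deposited raw read counts per Ensembl gene. The annotation release, the strand setting and the treatment of reads with more than 1 match are not given in the sources used here. Whole-number counts were analysed as deposited, and 0 columns belonged to no sample. Symbols and positions came from GENCODE M21 (GRCm38) and matched 47224 of 47643 identifiers.

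Genes with a median CPM above 1 over the 9 libraries were tested. TMM-scaled counts of the 6 libraries were fitted in edgeR 4.0.16 (R 4.3.3, quasi-likelihood F test, two-sided, Benjamini-Hochberg adjusted p under 0.05), with and without Control 1. CPM values are TMM-normalized, errors of log2 fold changes are standard errors, and n = 3 BSA against n = 3 Control libraries (n = 2 without Control 1). limma 3.58.1 (trend, voom), DESeq2 1.42.0, other scalings, filters, thinning and left-out libraries were alternatives. The code was tested on simulated data.

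Named genes were the 10 raised and 10 lowered genes with the largest log2 fold change that passed with and without Control 1, had groups that did not overlap and a mean of at least 1 CPM; the 5 raised and 5 lowered with the largest change that passed by edgeR only without Control 1; and members of the gene lists. Members and lists were chosen with earlier results of these data known. The list of zinc finger symbols, the printed promoters and the fit against Control 1 alone were chosen after seeing the data. The replicate numbers did not pair the libraries: deviations of Control and BSA libraries with the same number correlated at −0.05, −0.29 and 0.27.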

Additional observations from a re-analysis of the deposited data

How the results depend on the processing

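Each count of raised and lowered genes against all 3 Controls (260 and 118 with edgeR) changed by over 1.5 times in at least 1 direction under many alternatives, and the cause was not tested. Raised and lowered genes numbered 599 and 628 with DESeq2, 3199 and 2309 with voom sample quality weights (which gave Control 1 a weight of 0.0694), 173 and 295 with library size alone, 199 and 181 with upper-quartile factors, 413 and 205 without a filter, 674 and 431 with all 9 libraries in the fit, 245 and 78 after thinning to the smallest total, 2675 and 2217 against Control 1 alone, 108 and 10 at an adjusted p under 0.01, and 142 and 53 with at least a 2-fold change. With 1 library left out, raised genes ranged from 87 (without BSA 1) to 2616 (without Control 1), and lowered genes from 2 (without BSA 3) to 2591 (without Control 1). With the replicate number as a block (replicate block) there were 127 raised and 17 lowered genes; the numbers do not pair the libraries. Genes that passed both with and without Control 1 numbered 597 and 622 with DESeq2, 2737 and 2300 with quality weights, 173 and 295 with library size alone, 199 and 181 with upper-quartile factors, 108 and 10 at an adjusted p under 0.01, and 130 and 51 with at least a 2-fold change. limma trend (274 and 120), voom (270 and 98), DESeq2 size factors (237 and 136) and filterByExpr (254 and 134) stayed within 1.5 times.

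The log2 fold changes of Ltf, Prg2, Cd177 and Ngp, positive with all 3 Controls, were −0.32, −0.98, −1.04 and −0.072 against Control 1 alone, and that of Fat3, negative with all 3 Controls, was 0.71. With 1 library left out, Prg2 ranged from −0.033 (without Control 3) to 8.80 (without Control 1) and Cd177 from −0.16 (without Control 3) to 8.59 (without Control 1; −0.03 without Control 2). These upper values rest on Controls with 0 or 1 count and depend on the prior count. For single named genes, 388 alternative values kept direction and side of the threshold, 4 kept direction with no adjusted p from DESeq2, 35 newly passed it, 75 no longer passed it and 8 reversed. Control 2 has the smallest total, 9515004 counts, so low genes are least precise there.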

Other observations

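Some genes of the lists were too low for the expression filter and were not tested. Cxcl10, a chemokine induced by interferon, had 16, 6 and 13 counts in Control 1 to 3 and 66, 35 and 71 in BSA 1 to 3. Hspa1a, the inducible HSP70, had 1, 3 and 7 counts in the Controls and 39, 26 and 25 in BSA. Tslp, an epithelial-type cytokine, had 20, 9 and 16 counts in the Controls and 42, 28 and 34 in BSA. Other untested members showed no such rise. Zc3h12d had 6, 20 and 45 counts in the Controls and 24, 11 and 10 in BSA. Tnfrsf4 had 32, 10 and 24 and 14, 7 and 25, and Spry4 had 16, 9 and 14 and 14, 11 and 23. All of these are examples, and the untested members that rose were not counted. Control 2 had the smallest total count, so these raw counts are not on 1 scale.

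Gene length was not used in the comparison. The median exon length was 4057 bases for the 260 raised genes, 3067 bases for the 118 lowered genes and 4397 bases for all tested genes.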
